A study of Mus musculus with 12 samples.

Results

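Asic2 and Cadps are a pair of long mouse genes that each held 2 of the 10 best-ranked regions found with a MACF1 antibody in MACF1 knockdown cells. They were chosen by these measured values, out of 21887 protein-coding genes, so their knockdown peaks are described here and not tested. The 6 peak lists came from chromatin immunoprecipitation and sequencing in MC3T3-E1, an osteoblast line of mouse. One group of 3 libraries was made from cells labelled MACF1 knockdown and the other from cells labelled Control, with the labels 1, 2 and size3 in each. Every library had an input of its own genotype without antibody, which brings the samples to 12. The labels give neither the agent of the knockdown nor separate cultures nor the meaning of size3, and they list more than 1 antibody lot without saying which library had which. A binding assay does not measure how much MACF1 was left. The line's cell type was likewise not checked, since no RNA was measured.

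Asic2 encodes a subunit of the acid-sensing ion channels, sodium channels of the degenerin and epithelial sodium channel family that open when protons bind outside the cell. The subunit assembles with those of related genes, and alternative first exons give a short and a long form of the transcript. Cadps encodes CAPS1, a cytosolic and membrane-bound factor that primes dense-core vesicles for exocytosis and is related to the Munc13 proteins. Asic2 is known mainly from neurons, and Cadps from neurons and endocrine cells. MACF1 links actin filaments to microtubules.

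The immunoprecipitates held 5575205 to 18454330 reads after duplicate removal in knockdown and 10698067 to 33085606 in control. The share of reads dropped as duplicates ran from 0.02 to 0.65 in knockdown and from 0.01 to 0.25 in control, and it was lowest in both size3 libraries. The lists held 21398, 4513 and 17592 peaks in knockdown 1, 2 and size3 and 772, 198 and 2196 in control 1, 2 and size3. Depth, duplicates and list length therefore differ between libraries along with the peaks in these genes, and their part in the results was not tested.

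Asic2 (gene 11418) lies on chromosome 11 from 80880163 to 81968396 (GRCm38, minus strand). At 1088 kb it is exceeded in length by 47 protein-coding genes. Cadps (gene 27062) lies on chromosome 14 from 12372560 to 12823339, also on the minus strand, and is 451 kb long. The RefSeq promoter table of GRCm38.p6 gives Asic2 an outer start at 81968396 and an inner start at 81152903, 815 kb further along the gene, and gives Cadps 1 start at 12823079. The 300 bases around each start are shown because a single one of these windows, at the inner start of Asic2, lay under a peak. Each runs 5′ to 3′ from 250 bases before the start to 50 after it on the gene's strand, with CG dinucleotides in capitals.
Asic2 inner start, chr11:81152854-81153153: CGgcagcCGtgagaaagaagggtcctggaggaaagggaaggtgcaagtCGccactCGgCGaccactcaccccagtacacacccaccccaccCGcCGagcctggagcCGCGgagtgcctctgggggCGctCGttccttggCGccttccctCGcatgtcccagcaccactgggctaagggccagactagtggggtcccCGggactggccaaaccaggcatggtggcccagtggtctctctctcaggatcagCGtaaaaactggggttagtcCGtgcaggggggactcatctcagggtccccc
Asic2 outer start, chr11:81968347-81968646: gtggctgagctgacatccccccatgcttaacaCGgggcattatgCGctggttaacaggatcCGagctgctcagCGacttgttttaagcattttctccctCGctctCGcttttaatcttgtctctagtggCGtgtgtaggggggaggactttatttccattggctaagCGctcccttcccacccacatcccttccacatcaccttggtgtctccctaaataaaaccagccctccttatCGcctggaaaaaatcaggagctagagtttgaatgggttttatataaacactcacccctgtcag
Cadps start, chr14:12823030-12823329: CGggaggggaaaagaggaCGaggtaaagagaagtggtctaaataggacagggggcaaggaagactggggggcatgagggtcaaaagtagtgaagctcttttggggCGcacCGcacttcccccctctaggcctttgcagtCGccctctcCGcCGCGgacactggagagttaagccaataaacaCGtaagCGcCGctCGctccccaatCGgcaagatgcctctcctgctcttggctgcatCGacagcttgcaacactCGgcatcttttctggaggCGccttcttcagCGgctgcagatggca

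The inner Asic2 window is 65.3% G and C with 16 CG dinucleotides, and the Cadps window is 58.0% G and C with 17. The outer Asic2 window is 49.7% G and C with 9. Across 32851 windows of the same table the medians were 52.7% and 7. The E-box core CANNTG, the same on both strands, occurred 0 times in either Asic2 window and 1 time in that of Cadps, while 72.3% of all windows hold it. The E2F core GCGGGAA was found on neither strand of the 3 windows, and 4.60% of all windows hold it. These are matches of letters and not sites.

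Asic2 held peaks in all 3 knockdown libraries and in 1 control library. With 5 kb counted on each side, it had 18 peaks in knockdown 1, 2 in knockdown 2 and 19 in knockdown size3, against 0 in control 1, 0 in control 2 and 4 in control size3. Knockdown 2 lay below control size3, so the groups overlapped. The mean was 11.8 ± 8.69 peaks per Mb in knockdown and 1.21 ± 2.10 in control (SD, n = 3 each). Within the size3 label alone it was 17.3 peaks per Mb in knockdown and 3.64 in control. Every one of these summits lay inside the gene itself.

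Knockdown 1 had more reads in its Asic2 peaks than knockdown size3 on 1 peak fewer. The peaks of Asic2 together held 653 reads over 15930 bp in knockdown 1, 29 reads over 682 bp in knockdown 2 and 307 reads over 11635 bp in knockdown size3, against 64 reads over 2454 bp in control size3. Relative to all reads of the library after duplicate removal, in RPM, these were 35.4, 5.20 and 37.6 in knockdown 1, 2 and size3, against 5.98 in control size3. Knockdown 2 again lay below control size3. In Cadps the peaks held 70 reads in knockdown 1, 28 in knockdown 2 and 15 in knockdown size3, against 15 in control size3. In RPM these were 3.79, 5.02 and 1.83 in knockdown 1, 2 and size3, against 1.4 in control size3, so knockdown 2 was the highest on that scale.

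Cadps held fewer. It had 3 peaks in knockdown 1, 2 in knockdown 2 and 1 in knockdown size3, against 0 in control 1, 0 in control 2 and 1 in control size3. Knockdown size3 and control size3 were equal. The mean was 4.34 ± 2.17 peaks per Mb in knockdown and 0.723 ± 1.25 in control (SD, n = 3 each), and 4 of the 6 knockdown peaks belong to the regions that chose the gene.

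Having at least 1 peak was itself common in the longer lists. Of all protein-coding genes, 43.7% did in knockdown 1, 7.95% in knockdown 2 and 35.5% in knockdown size3. In control the figures were 1.38% in control 1, 0.315% in control 2 and 5.49% in control size3. The presence of a peak in both members in each knockdown library was part of what chose them and is read against nothing.

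**Figure D1:**
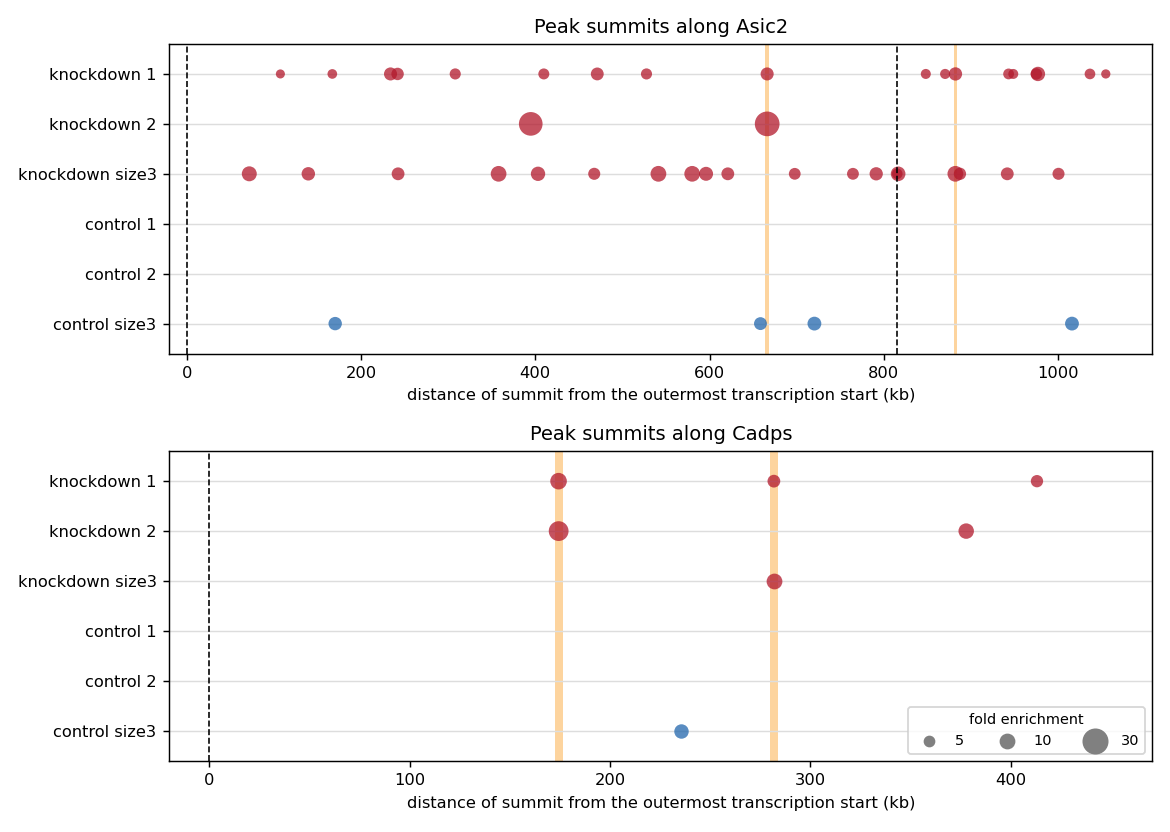
Summits of all peaks in Asic2 and Cadps by library, plotted as distance from the outermost transcription start in kb; dot area is proportional to the fold enrichment, knockdown libraries are red and control libraries blue. Dashed lines mark transcription starts and shaded bands the 4 regions called in 2 knockdown libraries; control 1 and control 2 have no peak in either gene.

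As a share of each list, the picture differed. Asic2 took 0.0841% of the peaks of knockdown 1 (95% Wilson interval 0.0532 to 0.133), 0.0443% of knockdown 2 (0.0122 to 0.161) and 0.108% of knockdown size3 (0.0692 to 0.169). Control size3 had 0.182% (0.0709 to 0.467), the highest of the 6 but within an interval that overlaps the others. The lists of control 1 and control 2 were so short that for a count of 0 the Wilson interval reached up to 0.495% and 1.90%. The mean share was 0.0788% ± 0.0322 in knockdown and 0.0607% ± 0.105 in control (SD, n = 3 each), a difference within the spread of the libraries that turned negative when control 1 or control 2 was left out, at -0.0123 points, and was 0.0788 points without control size3. For Cadps it was 0.0213% ± 0.0203 in knockdown and 0.0152% ± 0.0263 in control, also within the spread, and it turned negative when control 1 or control 2 was left out, at -0.00143 points, or knockdown 2, at -0.00533. Without control size3 it was 0.0213 points. Intervals cover counting error only.

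Asic2 had more peaks for its length than nearly all genes of its size, in a control library as well as in knockdown libraries. It was set against the 106 other protein-coding genes of 0.67 to 1.5 times its length. In knockdown 1 it had 16.4 peaks per Mb, above 105 of them, whose median was 2.41 and whose upper quartile was 4.92. In knockdown size3 it had 17.3 peaks per Mb, above 103 of them, with a median of 2.07 and an upper quartile of 5.20. In control size3 it had 3.64 peaks per Mb, above 105 of them, and 76 of these genes had no peak there. That library took no part in the choice of the gene, and its 4 peaks had false discovery rates of 78.8% to 90.9%.

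The genes above Asic2 were few and are named after their values were seen. They were Camta1, which encodes a transcription activator that binds calmodulin, with 24.6 peaks per Mb in knockdown 1, and the kinase gene Prkg1 with 4.13 in control size3. In knockdown size3 they were the adhesion gene Sdk1 with 21.3 peaks per Mb, the teneurin gene Tenm4 with 18.7 and Arhgap26 with 17.8. Knockdown 2 placed Asic2 lower, at 1.82 peaks per Mb, above 66 of the 106 genes and below 40. The 106 genes had 3.74 peaks per Mb when pooled in knockdown 1, where all protein-coding genes had 13.7. In knockdown size3 they had 3.42 and all genes 10.9, in knockdown 2 they had 1.62 and all genes 1.76, and in control size3 they had 0.453 and all genes 1.13. In control 1 and control 2 the 106 were above all genes, at 0.490 against 0.292 and at 0.0907 against 0.0583. Asic2 was above the pooled value of all genes in all 3 knockdown libraries and in control size3. In knockdown 2 this rests on 2 peaks, and 1 of them belongs to a region that chose the gene. No test was made, since the gene was chosen by its peaks. The place of Asic2 fell to 96.2% of the 106 genes in knockdown 1 and 95.3% in knockdown size3 when the peaks that chose it were removed from it alone. The remaining peaks come from the same lists that chose the gene, so this removal is no independent check.

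Cadps lay within the range of its 419 counterparts of like length. It had 6.51 peaks per Mb in knockdown 1, above 234 of them, with a median of 5.66 and quartiles of 2.34 and 12.1. Its 2.17 peaks per Mb in knockdown size3 were above 132 of them and below 287. In knockdown 2 it stood higher, at 4.34 peaks per Mb, above 373 of them, of which 227 had no peak. Control size3 gave 2.17 peaks per Mb, above 340 of them, from a single peak. Without the peaks that chose it, Cadps was left with 1 peak in knockdown 1, 1 in knockdown 2 and 0 in knockdown size3, and its mean was 1.45 peaks per Mb in knockdown, against 0.723 in control.

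**Figure D2:**
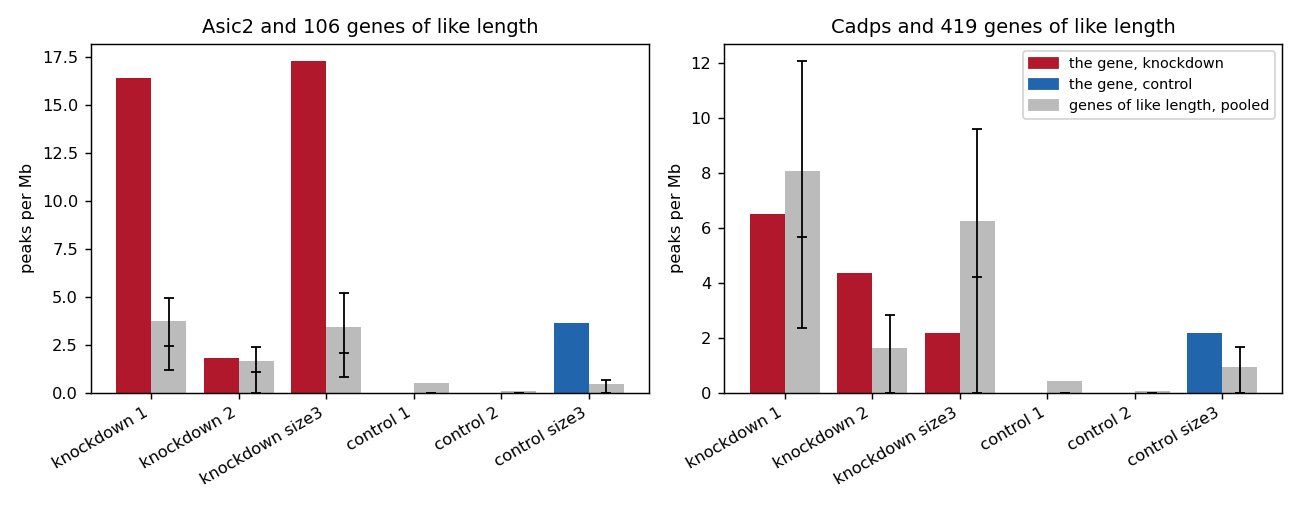
Peaks per Mb by library for Asic2 (left) and Cadps (right), each beside the pooled value of protein-coding genes of 0.67 to 1.5 times its length; black bars span the quartiles of those genes with a tick at the median. Asic2 exceeds the upper quartile in knockdown 1, knockdown size3 and control size3, and Cadps exceeds it in knockdown 2 and control size3.

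**Figure D3:**
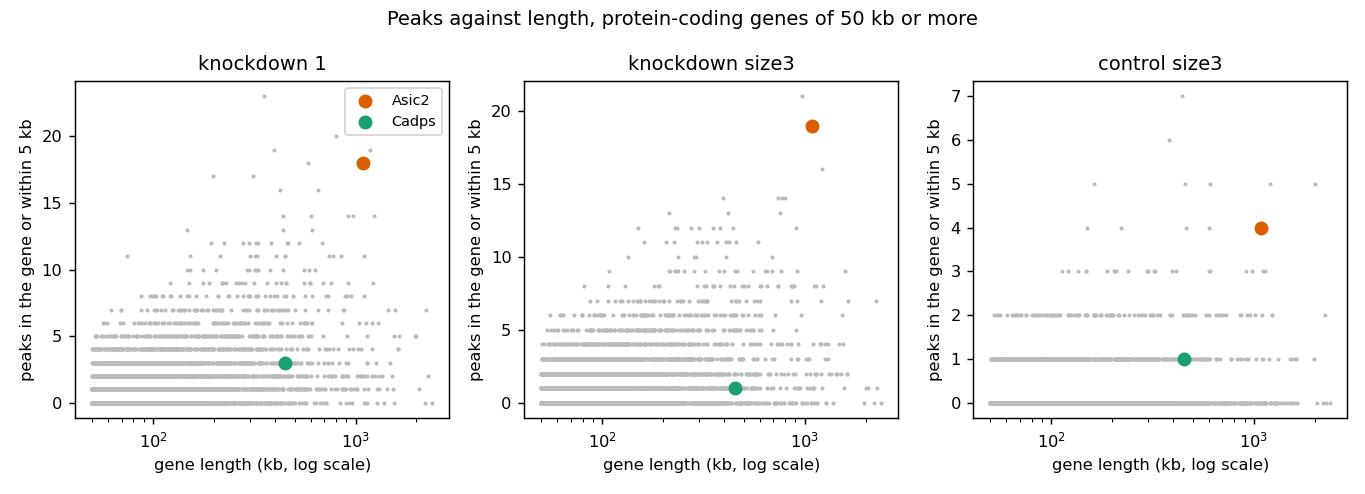
Number of peaks in the gene or within 5 kb against gene length on a log scale, for protein-coding genes of 50 kb or more (grey) in knockdown 1, knockdown size3 and control size3. Asic2 lies near the upper edge for its length with 18, 19 and 4 peaks, and Cadps lies among genes of its length with 3, 1 and 1.

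The 4 regions that chose the genes were each shared by knockdown 1 and 1 other knockdown library. They are part of 2010 regions called in at least 2 knockdown libraries, ordered by their mean rank of fold enrichment in the lists that called them. The Asic2 regions took places 2 and 7 with mean ranks of 305.5 and 565, and the Cadps regions took places 3 and 10 with mean ranks of 337.5 and 790.5. The last of these stood just inside the limit of 10, and the region in place 11 had a mean rank of 791. When the limit was widened up to the 40 best regions, no other gene gained 2.

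The upper Asic2 region, chr11:81301916-81302539, was called in knockdown 1 with 21 reads and a fold enrichment of 8.73 and in knockdown 2 with 17 reads and a fold of 31.2. The summits lay 52 bp apart, 666 kb from the outer start and 149381 to 149433 bp before the inner one. The lower Asic2 region, chr11:81085963-81086519, had its summits 66568 and 66670 bp beyond the inner start. It had 24 reads and a fold of 9.09 in knockdown 1 and 12 reads and a fold of 12.7 in knockdown size3, with summits 102 bp apart.

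The upper Cadps region, chr14:12648508-12648976, was among the strongest calls of knockdown 1 by fold enrichment, the measure that chose it. It had a fold enrichment of 14.1 with 30 reads in knockdown 1, rank 4 of 21398 peaks, and a fold of 20.0 with 18 reads in knockdown 2, rank 671 of 4513. Its summits lay 45 bp apart and 174 kb from the start. The lower Cadps region, chr14:12540980-12541604, had 24 reads and a fold of 8.33 in knockdown 1 and 15 reads and a fold of 12.7 in knockdown size3, with summits 35 bp apart. No control library called a peak in any of the 4 regions. That was the usual case, since 99.1% of the 2010 regions held no control peak.

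Scaled to library reads, the 4 regions held 1.14 to 1.63 RPM in knockdown 1. The regions shared with knockdown 2 held 3.05 RPM there in Asic2 and 3.23 RPM in Cadps, and those shared with knockdown size3 held 1.47 RPM in Asic2 and 1.83 RPM in Cadps. The false discovery rate, which the peak caller takes from swapping immunoprecipitate and input, was 1.42% to 3.82% in knockdown 1, 3.26% and 2.00% in knockdown size3, and 100% at both regions in knockdown 2. Each region thus rests on few reads, and leaving out knockdown 1 removes all 4.

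**Figure D4:**
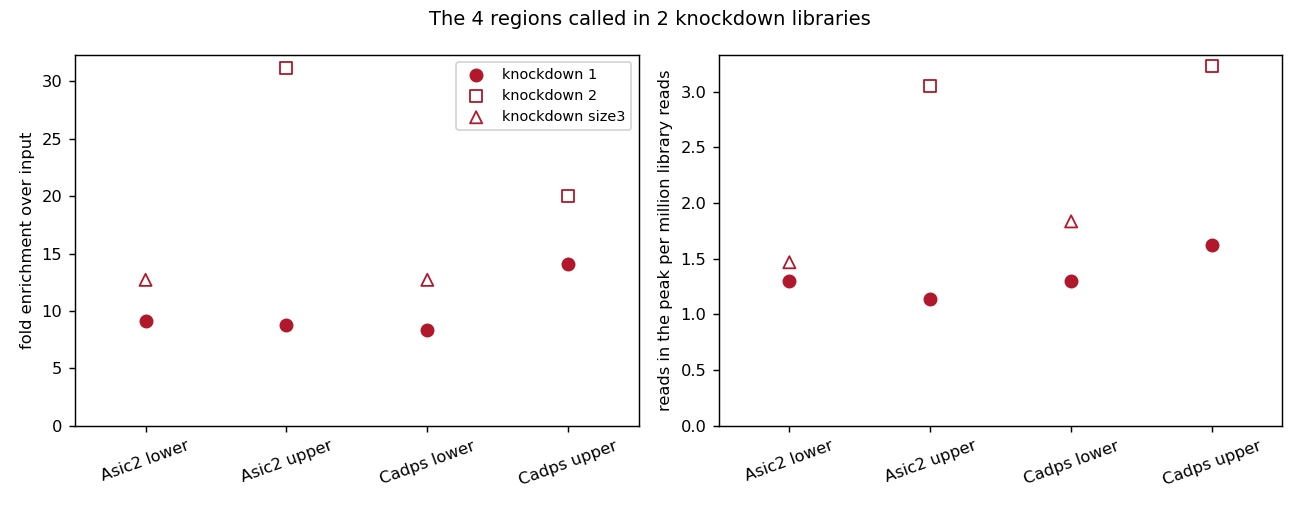
Fold enrichment over input (left) and reads in the peak scaled to library reads, in RPM (right) for the 4 regions, in each knockdown library that called them. Knockdown 2 has folds of 31.2 and 20.0, in a list whose median fold was 15.6, against medians of 4.98 in knockdown 1 and 8.10 in knockdown size3, so folds are not compared between libraries.

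Genes with repeated regions were uncommon. At least 1 region called in 2 or more knockdown libraries was held by 8.52% of protein-coding genes, 25.5% of the genes like Asic2 in length and 19.3% of those like Cadps. At least 2 were held by 0.8% of all genes, 3.77% of the genes like Asic2 and 2.63% of those like Cadps. Among the 106, Camta1 had 3, and Gm37013, Gm38666 and Gm38667 had 2 each. These last 3 are predicted genes that overlap on chromosome 18. Among the 419, Gse1 had 5 and Rbfox3 had 4, and a further 9 had as many as Cadps. The members' own counts of 2 follow from how they were chosen.

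Outside the shared region, no peak of knockdown 1 in Asic2 overlapped one of knockdown size3. Of the 18 peaks of knockdown 1, 4 lay within 5 kb of one, the overlapping peak included. The closest pair that did not touch was separated by 69 bp, at chr11:81725468-81726058 in knockdown size3 and chr11:81726128-81726929 in knockdown 1. The median distance from a knockdown 1 peak to the nearest of knockdown size3 was 18010 bp. Sharing was uncommon over the whole lists as well. Of 44202 regions joined from all 6 libraries, 2010 were called in at least 2 knockdown libraries. The low overlap is therefore not read as a trait of Asic2, and the distance was not set against other genes. None of the 4 peaks of control size3 overlapped a knockdown peak, as was so for 92.1% of the 2196 peaks of that list. One of them, chr11:81797571-81798334, lay 2456 bp from a peak of knockdown 1.

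Within Asic2, the libraries spread their peaks differently about the inner start. The stretch from the outer start to it is 815 kb, and the stretch after it is 273 kb. Knockdown 1 had 9 summits in each, or 11.0 per Mb before and 33.0 per Mb after the inner start. Knockdown size3 had 14 before and 5 after, or 17.2 and 18.3 per Mb, and control size3 had 3.68 and 3.67 per Mb. Both peaks of knockdown 2 lay before it. This division was made after the peaks had been seen, and the difference between the libraries was not tested.

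Knockdown size3 alone had peaks at the inner start itself. One, chr11:81152856-81154176, covered nearly the whole promoter window shown above, with its summit 138 bp from the start, 33 reads and a fold enrichment of 5.78. The other, chr11:81151523-81152458, had its summit 881 bp away, 28 reads, a fold of 11.0 and the highest score of that library in the gene, 101.6. Both had a false discovery rate under the 5% line, at 3.97% and 1.91%. A peak overlapped at least a part of 7.55% of the 21263 promoter windows of protein-coding genes in knockdown size3 and of 16.0% in knockdown 1. The nearest summit to the outer start of Asic2 was 71.8 kb away, in knockdown size3, and the nearest to the start of Cadps was 174 kb away, in knockdown 1.

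In knockdown 1 and knockdown size3 the peaks of Asic2 were narrower and had fewer reads than the lists they came from. Their median width was 770 bp in knockdown 1, where the whole list had 990 bp, and 597 bp in knockdown size3, where it had 647 bp. Median reads per peak were 34 in knockdown 1, where the list had 46, and 13 in knockdown size3, where it had 17. Median fold enrichment was higher, at 6.25 against 4.98 over the list in knockdown 1, and at 9.0 against 8.10 in knockdown size3. Fold enrichment entered the choice of 2 of these peaks in knockdown 1 and of 1 in knockdown size3. In knockdown 2 the 2 peaks of Asic2 had a median width of 341 bp, 14.5 reads and a fold of 29.9, against 359 bp, 9 reads and 15.6 over its list. Fold enrichment entered the choice of 1 of those 2 peaks as well. The 4 peaks of control size3 had a median width of 640 bp, 16.5 reads and a fold of 9.47, against 650 bp, 16 reads and 8.33 over its list.

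The strongest single peaks of Asic2 were not all in shared regions. In knockdown 1 the highest fold was 10.6, with 46 reads, at chr11:80991196-80992102, 977 kb from the outer start, and a second, broader peak of 59 reads followed at chr11:80993029-80994754. In knockdown 2 it was the 31.2 of the upper shared region. In knockdown size3 it was 12.7, reached both at the lower shared region and at chr11:81426746-81427462. In control size3 it was 9.77, at chr11:80952303-80952712 and chr11:81247816-81248433. The second peak of knockdown 2, chr11:81573492-81573782, had 12 reads and a fold of 28.6 and reached into 1700071K01Rik, a short gene that lies inside Asic2.

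In Cadps the remaining peaks stood alone. Knockdown 1 had one of 16 reads at chr14:12409793-12410099, with a fold of 7.76, and knockdown 2 one of 10 reads at chr14:12445113-12445512, with a fold of 12.2 and a false discovery rate of 100%. The single peak of control size3, chr14:12587305-12587868, had 15 reads, a fold of 10.7 and rank 109 of 2196. It lay 45700 bp from the nearest knockdown peak, that of knockdown size3.

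False discovery rates in the genes followed those of the lists. In Asic2 the rate was at most 5% for 18 of 18 peaks in knockdown 1 and 12 of 19 in knockdown size3. It was so for 0 of 2 in knockdown 2, and for 0 of 4 in control size3. Over the whole lists the share of such peaks was 98.9% for knockdown 1 and 57.8% for knockdown size3. For knockdown 2 it was 1.13%, and for control size3 it was 0%.

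The relatives and partners of the members held shared regions in a few cases. Of 51 other genes in 5 lists, 8 had a region called in at least 2 knockdown libraries, which is 15.7% against the 8.52% of all genes, and 4 had no peak in any library. This share is not read as a property of the pathways. Median gene length ran from 20.2 to 179 kb across the 5 lists, and its part in the share was not tested.

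Among the other acid-sensing and epithelial sodium channel genes, 1 of 7 had such a region: Asic4, with 2 peaks in knockdown 1 and 2 in knockdown size3. Asic1, whose product forms channels together with that of Asic2, had 2 peaks in knockdown 1, 1 in knockdown 2 and 1 in knockdown size3 but none shared. Scnn1g had 1 peak in knockdown 2 and 2 in knockdown size3. Scnn1a, the alpha subunit of the epithelial channel, had 1 peak in knockdown size3 and 1 in control size3. Of 4 genes of channel partners, Stom, which encodes the membrane protein stomatin, and Pick1, which encodes a scaffold that binds the channels, had a shared region each. Stoml1 and Stoml3 had 3 peaks each and none shared.

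Of 6 other genes of the CAPS and Munc13 group, 1 had a shared region, Baiap3. Cadps2, the closest relative of Cadps, is 578 kb long and had 3.40 peaks per Mb in knockdown 1, 1.70 in knockdown 2 and 5.10 in knockdown size3, against 1.70 in control 1 and none in the other control libraries. Unc13a and Unc13b, which encode Munc13 priming factors of synaptic vesicles, had 4 peaks each in knockdown 1 and none shared.

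Of 18 SNARE and fusion genes, 2 had a shared region, the calcium sensor genes Syt1 and Syt7. Syt1 had 5.73 peaks per Mb in knockdown 1, 5.73 in knockdown 2 and 13.4 in knockdown size3, against 0 in control 1, 1.91 in control 2 and 3.82 in control size3. Syt9, another synaptotagmin gene, had 2 peaks in knockdown 1, 1 in knockdown 2 and 1 in knockdown size3, and none in control. Of 16 Rab3 and active zone genes, Rims2 and Bsn had a shared region. Rims2 had 6.05 peaks per Mb in each knockdown library and 0 in each control library. Ppfia2 had 1, 2 and 2 peaks in knockdown 1, 2 and size3, against 2, 0 and 1 in control 1, 2 and size3. Erc2 had 2 peaks in knockdown 1 and 4 in knockdown size3, against 1 in control size3.

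The pattern of Asic2 over the 6 libraries was most like that of Prkce, a protein kinase C gene, among 556 other genes of at least 300 kb. Likeness was the Euclidean distance between the 6 values of log2(peaks per Mb + 1), which was 0.178 for Prkce, 0.734 for Runx2 and 0.775 for Iqsec1, a gene of an exchange factor for Arf GTPases. Prkce had 16.0, 2.00 and 16.0 peaks per Mb in knockdown 1, 2 and size3 and 4.00 in control size3. Runx2, the master transcription factor of osteoblasts, had 15.2, 3.04 and 24.3 peaks per Mb in knockdown 1, 2 and size3 and 3.04 in control size3. Nearest to Cadps were Sorbs2 at 0.765, the guidance gene Sema3a at 0.966 and Tmem117 at 1.06, each from at most 4 peaks in any library. The members were not among the genes nearest to each other. Their distance was 3.0, which put Cadps in place 178 from Asic2 and Asic2 in place 227 from Cadps.

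The genes next to the members held at most 1 peak in any library. Spaca3 and Ccl2, on the sides of Asic2, are 9.45 and 1.88 kb long and had none in any library. Fezf2, a transcription factor gene 25757 bp from Cadps, had 1 in knockdown 1 and none elsewhere. The same held for Synpr, 461441 bp away on the other side. Since 43.7% of all protein-coding genes had at least 1 peak in knockdown 1, these counts are not read as a trait of the surroundings.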

How the data were processed

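The submitters' processing notes name cutadapt, Bowtie2, MACS 1.4.2 and the build GRCm38. The file headers show that MACS compared each immunoprecipitate with its own input, replicates unpooled, at a p cutoff of 1.00e-05 and with at most 1 read per position. In the deposited lists, tags are whole counts of reads in a peak, and width and summit are in bp. The deposited score is -log10 of the p-value times 10. The authors' fold enrichment is a ratio over the local input background, and their false discovery rate is in percent. Scores and folds served only to describe or order peaks of the same list.

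Peaks overlapping a protein-coding gene of RefSeq (GRCm38.p6) on chromosomes 1 to 19, X and Y, or 5 kb to either side, were counted with Python 3.11.15, numpy 2.4.6, scipy 1.17.1 and pandas 2.3.3, and drawn with matplotlib 3.10.9. Overlapping peaks were joined into regions. RPM are reads in peaks over the library's reads after duplicate removal, scaled by the usual factor. Strand and starts came from the RefSeq promoter table, which matched both genes. Counting was tested on simulated data with planted peaks. Named genes were the members, their neighbours, up to 4 genes of each list ordered by how many libraries called them, and the 3 genes of at least 300 kb most like each member. The members and lists were chosen with earlier results of these data known. The libraries are not known to be separate cultures, so SDs may be technical. Alternatives were the flank, the summit, stricter peaks, lists of equal length, the overlap, scaled ranks and each library left out. Those added after seeing the data were the removal of the choosing regions and every alternative for the place among genes of like length: that removal, other bounds on length, a false discovery rate of at most 5%, no flank, and the summit. 1 gene that the naming rule selects is not reported here. The bases of the peaks were not analysed here.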

Additional observations from a re-analysis of the deposited data

How the results depend on the processing

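No paired analysis was possible because the results come from no test. Library omissions aside, 25 of 40 values under the alternatives listed at the start stayed close to their main value and 15 moved. Of 30 under alternatives chosen after seeing the data, most of them on peaks against gene length, 27 stayed close and 3 moved. A difference counted as close if it shifted by less than the knockdown SD. That SD is wide, at 8.69 peaks per Mb for Asic2 and 0.0322 points for its share. Other values counted as close within a set ratio. The move of Cadps from 31.5% to 46.8% of like-length genes in knockdown size3, at the 5% false discovery rate, counted as close. The difference in peaks per Mb, knockdown minus control, was 10.6 for Asic2 and 3.62 for Cadps. With a score of at least 100 it was 1.21 and 1.45, with the 198 best peaks of each list 0.304 and 0.723, and without the choosing regions 0.723 for Cadps. Leaving out 1 library gave 7.89 to 15.6 for Asic2 and 2.53 to 4.70 for Cadps. The difference in share of the list was 0.0181 points for Asic2 and 0.00616 for Cadps. It was 0.284 and 0.130 at a score of at least 100, and 0.168 for both with equal lists. Leaving out 1 library gave -0.0123 to 0.0788 for Asic2 and -0.00533 to 0.0213 for Cadps, and without control 1 or control 2 the Cadps value was -0.00143. A share at a false discovery rate of at most 5% gave no value, since 2 control lists were then empty.

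Each gene had 2 regions called in at least 2 knockdown libraries. At a false discovery rate of at most 5% each had 1, at a score of at least 100 Asic2 had 0 and Cadps 1, and with equal lists both had 0. Leaving out 1 library gave 0 to 2 for each, with 0 without knockdown 1. With ranks divided by list length, the upper Cadps region moved to place 25, outside the 10 best. Chosen after seeing the data, the removal of the choosing regions put Cadps above 23.4% of genes of like length in knockdown 1, where all its peaks gave 55.8%, and above 0% in knockdown size3, where they gave 31.5%. Peaks were removed from the members alone, which lowers them by construction. The causes of the other changes were not tested. The 12 to 30 reads of each choosing peak limit the precision of every fold given.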

Other observations

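Close to the members, knockdown 1 had a pair of peaks that belong to neither gene. One lay 45841 bp from the lower end of Asic2 at chr11:80833571-80834322. It had 28 reads and a fold enrichment of 11.9, rank 26 of 21398 and above every peak of that library inside Asic2. The other lay inside Fezf2, a transcription factor gene of the forebrain beside Cadps, at chr14:12343328-12346782. It was 3455 bp wide with 204 reads and a fold of 2.68. No other library had a peak between 5 kb and 50 kb from either gene.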
